A study of Mus musculus with 9 samples.

Results

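What an agonist antibody to CD27 adds to blockade of PD-1 and PD-L1 was asked by setting 3 arrays of cells from combination-treated mice against 3 arrays from mice given anti-PD-1/L1, 6 of the 9 arrays of the series. The arrays were chosen by their titles, with 1 mouse per array, and 30702 genes were compared. All 9 mice received transferred CD8+ T cells (2000000 per mouse) of pmel1 mice bearing the Thy1.1 marker and 100 µg of hgp100 peptide into a vein, with 400 µg of antibody in total. In the combination this was 200 µg of the CD27 agonist AT124, 100 µg of the PD-1 antibody RMP1-14 and 100 µg of the PD-L1 antibody 10F.9G2. The anti-PD-1/L1 mice received the PD-1 and PD-L1 antibodies with 200 µg of isotype control antibodies, and the dose of each of those 2 blocking antibodies in that group was not given on its own. The remaining group, anti-CD27, received 200 µg of AT124 with 200 µg of isotype control antibodies, and its levels are set beside the others. Thy1.1+CD8+ cells were sorted from the spleen on day 4 to over 99% purity, and RNA came from at least 400000 cells per mouse. The recipients were naive congenic mice, the transferred cells carry the transgenic pmel1 receptor for gp100, no group received peptide with isotype control alone, and the strain, sex and age of the recipients were not given. Each array is 1 mouse, so p-values measure the spread between mice of 1 experiment.

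CD27 belongs to the TNF receptors that costimulate T cells. It is carried by naive and early activated T cells and signals through TRAF adaptor proteins to NF-kB, a family of transcription factors of survival and activation. PD-1 is an inhibitory receptor induced on activated T cells, and binding of its ligand PD-L1 recruits phosphatases that dampen signals of the T cell receptor and of CD28. CD8+ T cells that receive antigen, costimulation and inflammatory cytokines divide many times and become killer cells that carry granzymes and receptors for interleukin-2 and interleukin-12.

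The 2 groups of arrays differed in their control probe sets, and every gene was therefore also read against genes of like level. Background control probe sets had a mean log2 level of 3.24, 3.22 and 3.29 on the combination arrays and 4.02, 4.01 and 4.16 on the anti-PD-1/L1 arrays, a difference of -0.81. Bacterial and phage controls were lower in the combination by 1.15 log2 units (difference -1.15), ERCC spike-in controls differed by -0.74 and positive controls by 1.06, and each of these had an exact permutation p of 0.1, two-sided, the smallest that 3 arrays against 3 allow. Negative controls differed by 0.01 (exact permutation p = 0.9). The arrays of the anti-CD27 group sat with those of the combination in the first 4 kinds of control, as the plot of control probe sets shows. Antibody treatment and the difference between arrays cannot be told apart by the design, since each anti-PD-1/L1 array carries both.

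**Figure D1:**
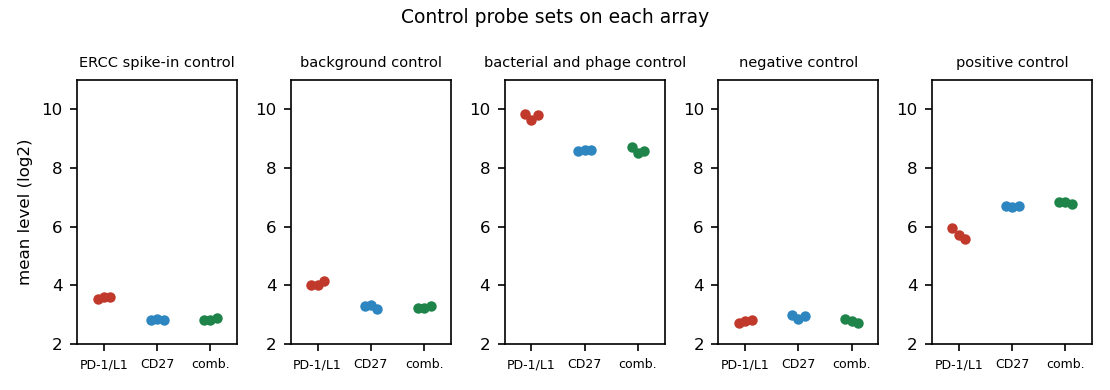
Mean log2 level (y axis) of 5 kinds of control probe sets on each of 9 arrays, with 1 point per array and the groups anti-PD-1/L1, anti-CD27 and combination on the x axis. The anti-PD-1/L1 arrays lie apart from the other 6 in every kind but the negative controls, with bacterial and phage controls between 9.62 and 9.85 against 8.51 to 8.72 elsewhere.

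The median difference between the groups followed the level of the gene. It was -0.47 among genes with a mean level of 3 to 4 on the log2 scale, 0.09 at 5 to 6 and 0.53 at 7 to 8. At higher levels it was 0.34 at 8 to 9, -0.15 at 9 to 10 and 0.11 at 10 to 14, as the plot of difference against level shows. The relative difference printed below is what remained after the running median over the 200 genes on either side in mean level had been subtracted from each array. Over all genes it had a median of -0.02, against -0.26 for the deposited values. With limma on the deposited values 5839 genes were higher in the combination and 16368 lower at an adjusted p under 0.05 (19.0% and 53.3% of genes tested), and on the relative values 7833 were higher and 7558 lower (25.5% and 24.6%).

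**Figure D2:**
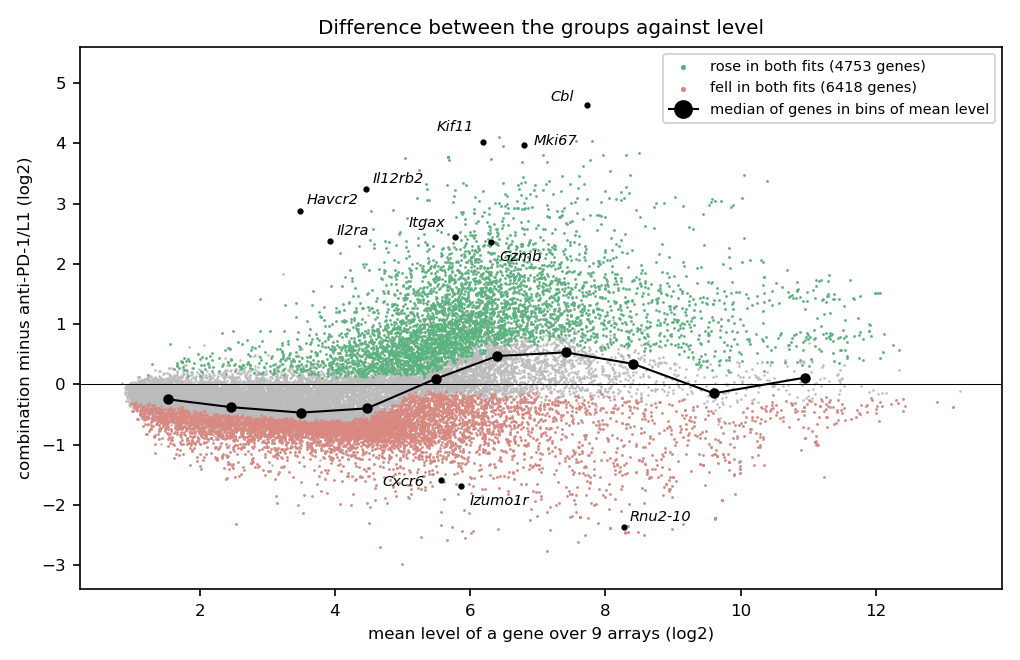
Combination minus anti-PD-1/L1 (log2, y axis) against the mean level over 9 arrays (log2, x axis) for 30702 genes, 1 point per gene, with the median of genes in bins of level as black points. The black line runs from -0.25 at the left over -0.47 to 0.53, then down to -0.15 and up to 0.11 at the right. Green and red points are the 4753 and 6418 genes that rose and fell in both fits.

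Differences are log2 values with the SE of the limma fit, and levels of groups are means with the SD of 3 arrays. Each gene has 1 spread in this fit, shared by the 3 groups. The median SD of a gene was 0.141 in anti-PD-1/L1, 0.0682 in the combination and 0.0585 in anti-CD27. An SE can therefore be too small where anti-PD-1/L1 spread most. A gene is said to have risen or fallen in the combination where both of these fits called it in the same direction, which held for 4753 higher genes (15.5%) and 6418 lower genes (20.9%), together 36.4% of those tested. Of these, 4562 and 6193 were also called in the same direction after quantile normalization of the 9 arrays (14.9% and 20.2%). A level is called above background where the group's mean was over 1 log2 unit above its background controls, that is above 4.25 in the combination and 5.06 in anti-PD-1/L1. This is 1 rough limit for all genes, since the background controls rose with their GC count, from 0.84 at a count of 3 to 6.93 at 23 in the combination and from 0.99 to 8.34 in anti-PD-1/L1, and the gap between the groups widened with it. Among risen genes 4451 (14.5% of all tested) were above background in the combination, and among fallen genes 3228 (10.5%) were so in anti-PD-1/L1. As a yardstick, the relative difference of the 1324 positive control probe sets had a median of 0.78, a 5th percentile of -1.27 and a 95th percentile of 3.25. Of the list medians below, only those of proximal T cell receptor signalling (1.26), DNA replication (0.83) and mitosis (1.75) exceed 0.78. Many single genes named below, such as Il2ra (2.82) and Stat4 (2.73), also lie between these percentiles. For many single genes, values are therefore given array by array or as group means, with the level in anti-CD27 beside them. Other genes are given by their relative difference alone or without anti-CD27, and for those this comparison cannot be made from the text.

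The sorted cells carried the genes of their markers in both groups. Cd8a, a chain of the CD8 coreceptor, was at 10.59, 10.53 and 10.45 on the combination arrays and 9.59, 9.17 and 8.86 on the anti-PD-1/L1 arrays, and Thy1 at 8.40, 8.40 and 8.37 and 7.69, 7.34 and 7.21. Both were higher in the combination, with relative differences of 1.39 ± 0.11 (SE) and 0.58 ± 0.064. With cyclic loess the difference of Cd8a was 0.82. The probe set of Cd27, which also names a microRNA, read 9.98, 10.1 and 9.88 in the combination and 9.73, 9.32 and 9.07 in anti-PD-1/L1. Its deposited difference was 0.61 ± 0.15 and its relative difference 1.03 ± 0.13 (limma over 65956 probe sets, adjusted p = 0.000173). The latter is relative to all transcript probe sets of like level, not to genes, and is not directly comparable with those of Cd8a and Thy1. In bulk RNA, fewer cells of a type and less RNA per cell cannot be told apart. Most markers of the myeloid, B and NK lists below were not above background. Of 9 B cell markers 2 were above background in the combination and 1 in anti-PD-1/L1, of 9 macrophage and monocyte markers 1 in each (Cd68), of 10 dendritic cell markers 1 in each (Batf3), of 10 neutrophil markers none in either, and of 8 NK cell markers 2 in each. The mean level of the dendritic cell list was 2.54 to 2.59 on the combination arrays and 2.79 to 2.91 on the anti-PD-1/L1 arrays, and that of the macrophage list 3.04 to 3.09 and 3.24 to 3.32. In these 5 lists 3 markers rose (Cd22, Cd68 and Eomes) and 9 fell. The share of falls was near the 20.9% of all genes tested, and the share of rises was below their 15.5%. Of 4 platelet markers 3 were above background in the combination and 2 in anti-PD-1/L1, and 3 fell (Pf4, Itga2b and Gp9). Of 7 markers of stroma and endothelium 2 were above background in each, and 3 fell (Cdh5, Col1a1 and Col3a1). Of 5 CD4 T cell markers, which include Ctla4 and Cd40lg of activated CD8+ cells, 3 were above background in the combination and 2 in anti-PD-1/L1, and 1 fell (Zbtb7b). Of 3 erythroid markers 1 was above background in the combination, and 1 rose (Tfrc, the transferrin receptor, which dividing T cells also use).

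Several genes of killer T cells were low in both single treatments and high in the combination. Il12rb2, the beta-2 chain of the receptor for interleukin-12, was at 6.74, 6.59 and 6.68 on the combination arrays, at 3.36, 3.52 and 3.41 on the anti-PD-1/L1 arrays and at 3.22, 3.24 and 3.40 on the anti-CD27 arrays. The 3 combination arrays lay above all 6 others, which were near or below the background controls. The combination was at least 6.09-fold above anti-PD-1/L1, counting from the background controls where the gene lay below them and taking the smallest value over the deposited, relative, quantile and cyclic loess scales, and its relative difference was 3.65 ± 0.074 (log2 ± SE, limma adjusted p = 1.31e-08). After quantile normalization the difference was 3.32.

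Il2ra, the chain that gives the interleukin-2 receptor its high affinity, read 5.40, 5.62 and 5.66 in the combination, 3.02, 3.10 and 3.45 in anti-PD-1/L1 and 3.10, 2.99 and 3.05 in anti-CD27. No array of either single treatment reached the lowest combination array, and the rise over anti-PD-1/L1 was at least 2.83-fold (relative difference 2.82 ± 0.11, limma adjusted p = 1.52e-07). Gzmb encodes granzyme B, a protease of cytotoxic granules. It was at 8.44, 8.57 and 9.02 in the combination, 6.49, 5.40 and 7.05 in anti-PD-1/L1 and 3.65, 3.70 and 4.44 in anti-CD27. Here the anti-PD-1/L1 mice lay between the others and spread most, and the relative difference of 1.89 ± 0.39 (adjusted p = 0.00271) corresponds to 3.69-fold.

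Havcr2, which encodes the inhibitory receptor TIM-3 of effector T cells, was at 5.12, 5.29 and 5.45 in the combination against 2.37, 2.40 and 2.45 in anti-PD-1/L1 and 2.79, 2.43 and 3.09 in anti-CD27. All 6 arrays of the single treatments were below the mean of their group's background controls, so the measured rise was at least 2.34-fold, with a relative difference of 3.32 ± 0.15. Lilrb4a, an inhibitory receptor of the immunoglobulin family, stepped up from 3.26, 2.79 and 3.10 in anti-PD-1/L1 over 4.99, 5.36 and 5.36 in anti-CD27 to 6.53, 6.98 and 6.93 in the combination (at least 6.72-fold over anti-PD-1/L1, relative difference 3.82 ± 0.16). Cd80, a ligand of CD28 and CTLA-4, did likewise, from 3.57, 3.26 and 3.42 over 4.32 on all 3 anti-CD27 arrays to 6.16, 5.69 and 5.60. Itgax, the integrin CD11c, which dendritic cells carry and activated CD8+ T cells acquire, was at 7.38, 7.52 and 7.58 in the combination, 5.17, 4.84 and 5.16 in anti-PD-1/L1 and 4.47, 4.81 and 5.02 in anti-CD27, with a relative difference of 2.25 ± 0.14. Of 10 dendritic cell markers Batf3 alone was above background, in both groups, and it fell in the combination. Whether dendritic cells contributed to the level of Itgax was not tested.

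**Figure D3:**
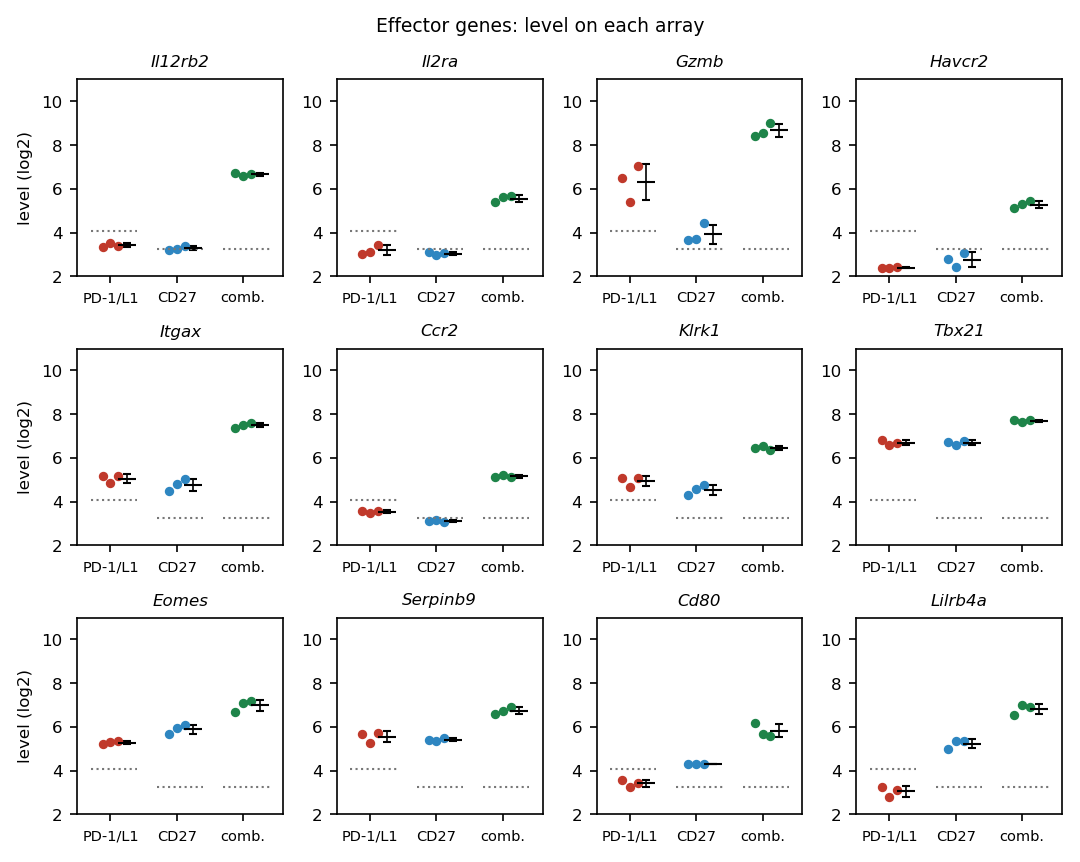
Log2 level (y axis) of 12 effector genes on each of 9 arrays, with 1 coloured point per array, the mean and SD of 3 arrays in black and the mean of the group's background controls as a dotted line. The combination arrays are the highest 3 for each gene, and Il12rb2, Il2ra, Havcr2, Ccr2, Cd80 and Lilrb4a lie below the dotted line on the anti-PD-1/L1 arrays.

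The same shape was looked for after values had been seen, by ranking genes on the gap between the lowest combination array and the highest of the 6 other arrays, and the widest gaps were those of Il12rb2 (3.07), Itgax (2.21), Havcr2 (2.03) and Il2ra (1.95). Next came Ccr2, a receptor for inflammatory chemokines, at 5.16 ± 0.065 (mean ± SD, n = 3) in the combination, 3.54 ± 0.064 in anti-PD-1/L1 and 3.12 ± 0.051 in anti-CD27. Gpr15, a homing receptor for the gut, was at 6.32 ± 0.21 in the combination, 4.48 ± 0.055 in anti-PD-1/L1 and 4.52 ± 0.11 in anti-CD27, and Plek, a substrate of protein kinase C, at 8.09 ± 0.17 in the combination, 6.29 ± 0.32 in anti-PD-1/L1 and 5.87 ± 0.14 in anti-CD27. Mt1, a metallothionein that binds zinc, was at 6.67 ± 0.32 in the combination, 4.91 ± 0.066 in anti-PD-1/L1 and 4.76 ± 0.10 in anti-CD27. Klrk1, the activating receptor NKG2D, was at 6.45 ± 0.11 in the combination, 4.94 ± 0.23 in anti-PD-1/L1 and 4.54 ± 0.24 in anti-CD27. In each of these 5 genes the anti-PD-1/L1 and anti-CD27 means lay closer to each other than either lay to the combination. The ranking asks for the combination above all other arrays, so this shape is partly set by the choice. It did not hold for Gzmb, whose gap (1.39) lay between those of Plek and Mt1, with anti-PD-1/L1 at 6.31 and anti-CD27 at 3.93. Nor did it hold for Lilrb4a (3.05 and 5.24) or Mcm3 (4.84 and 6.70). Ccr2, Gpr15, Mt1 and Klrk1 were not above background in anti-PD-1/L1. Their rises over it were at least 2.14-fold, 3.59-fold, 3.08-fold and 2.61-fold, in that order. Ccr2 was below the background controls in both single treatments (4.06 in anti-PD-1/L1 and 3.27 in anti-CD27). How far this limit sets the closeness of the single treatments was not tested. The difference between the combination and anti-CD27 was not tested here.

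The cytotoxic list held 17 measured genes, of which 7 rose (41.2%) and none fell in the combination, with a median relative difference of 0.50. Among all genes tested 15.5% rose and 20.9% fell, the shares to set beside the counts of this and every later list. The 7 were Gzmb, Tnfsf10, Nkg7, Lamp1, Ctsw, Ctsc and Serpinb9, the last of which encodes a serpin that blocks granzyme B within the killer cell. Serpinb9 was at 6.59, 6.73 and 6.92 in the combination, 5.69, 5.26 and 5.72 in anti-PD-1/L1 and 5.41, 5.35 and 5.48 in anti-CD27, a relative difference of 0.90 ± 0.13. Prf1, which encodes perforin, did not pass, with a relative difference of 0.07 ± 0.072, and neither did Gzma (granzyme A), with 0.44 ± 0.25. Granzyme B thus rose while perforin and granzyme A were not shown to move relative to genes of their level.

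Among transcription factors of effector cells 11 of 19 rose and 3 fell (57.9% and 15.8%, against 15.5% and 20.9% of all genes). Tbx21, which encodes T-bet, was at 7.72, 7.65 and 7.73 in the combination and 6.83, 6.58 and 6.68 in anti-PD-1/L1, with anti-CD27 at 6.72, 6.58 and 6.79. The combination arrays lay above both single treatments, and the relative difference from anti-PD-1/L1 was 0.53 ± 0.079. Eomes, the related factor of effector and memory cells, was at 6.70, 7.10 and 7.18 in the combination, 5.21, 5.29 and 5.34 in anti-PD-1/L1 and 5.67, 5.93 and 6.08 in anti-CD27 (1.32 ± 0.15 relative). Id2, which favours effector cells, rose by 1.23 ± 0.064, and Id3, which favours memory cells, fell with a relative difference of -1.02 ± 0.061. Bhlhe40 was at 8.10 ± 0.20 in the combination and 8.18 ± 0.28 in anti-CD27, both above 5.13 ± 0.23 in anti-PD-1/L1. Prdm1, which encodes Blimp-1, passed the test with a relative difference of 0.63 ± 0.074, but its level was not above background in either group and no fold is given.

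Receptors for cytokines and their signalling proteins rose in 14 of 27 genes and fell in 2. Stat4, the factor that the interleukin-12 receptor activates, was at 9.51, 9.50 and 9.33 in the combination and 6.74, 6.41 and 5.91 in anti-PD-1/L1 without overlap, and at 9.00, 9.00 and 9.09 in anti-CD27 (2.73 ± 0.10 relative, adjusted p = 1.46e-07). Il18r1, a chain of the interleukin-18 receptor, was at 8.49 ± 0.033 in the combination, 5.83 ± 0.24 in anti-PD-1/L1 and 7.98 ± 0.05 in anti-CD27. The 2 members that fell were Socs1 and Socs3, feedback inhibitors of STAT signalling, with relative differences of -1.15 ± 0.091 and -1.21 ± 0.12. Both were lowest in the combination, at 5.85 and 5.61, against 6.66 and 6.49 in anti-PD-1/L1 and 6.04 and 5.82 in anti-CD27. Of 21 cytokines and chemokines 6 rose and 1 fell (Il13, not above background in either group). Ifng (interferon gamma) was at 6.95, 6.88 and 6.38 in the combination, 5.85, 4.63 and 5.24 in anti-PD-1/L1 and 6.52, 6.69 and 6.36 in anti-CD27, a relative difference of 1.16 ± 0.24 (adjusted p = 0.00277). The anti-PD-1/L1 mice spread most, and the anti-CD27 mice lay within the range of the combination or just below it. Ccl5, which attracts T cells and monocytes, rose by 1.04 ± 0.13, whereas Tnf did not pass (-0.21 ± 0.1).

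Promoters of the receptor genes that rose are shown because Il12rb2 and Havcr2 had among the widest gaps between the combination and all other arrays. The 250 bases before the start site were read from RefSeq (GRCm38.p6), 5′ to 3′ on the gene's strand, and capitals mark matches, on either strand, to TTCNNNGAA, the core recognised by STAT factors, or to TGANTCA, the core of AP-1 sites. Il12rb2 lies on the minus strand at chr6:67376189-67376438 and held a STAT core that begins 123 bases before the start. Havcr2 lies on the plus strand at chr11:46454681-46454930 and held an AP-1 core that begins 200 bases before the start.
Il12rb2: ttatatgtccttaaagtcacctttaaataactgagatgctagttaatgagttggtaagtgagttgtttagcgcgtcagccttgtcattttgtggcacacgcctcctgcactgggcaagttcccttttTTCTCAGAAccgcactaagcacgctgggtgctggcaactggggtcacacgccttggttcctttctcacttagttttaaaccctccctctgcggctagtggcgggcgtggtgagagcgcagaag
Havcr2: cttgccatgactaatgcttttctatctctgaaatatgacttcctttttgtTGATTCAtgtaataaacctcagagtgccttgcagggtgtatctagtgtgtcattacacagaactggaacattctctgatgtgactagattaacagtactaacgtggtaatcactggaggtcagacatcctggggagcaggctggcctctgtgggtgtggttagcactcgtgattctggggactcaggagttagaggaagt
Of 12 risen genes of the cytokine receptor list with a RefSeq promoter, 3 held the STAT core, against 7.87% of 18265 genes tested that had one, and none held the AP-1 core, against 7.56%. A match describes the letters of this window and is not a site of binding.

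Of 17 measured genes of the NF-kB list 10 rose and none fell, with a median relative difference of 0.47. All 10 were also called after quantile normalization. Rela, the p65 subunit, was at 9.02, 9.07 and 8.91 in the combination and 6.51, 6.59 and 6.22 in anti-PD-1/L1, and at 8.90, 8.94 and 8.94 in anti-CD27 (2.15 ± 0.10 relative). Rel, the c-Rel subunit of activated lymphocytes, was at 7.64, 7.55 and 7.34 in the combination, 5.59, 5.63 and 5.50 in anti-PD-1/L1 and 8.05, 7.92 and 7.89 in anti-CD27 (1.45 ± 0.11). Tnfaip3 encodes A20, a feedback inhibitor of NF-kB induced by it, and was at 8.29, 8.56 and 8.03 in the combination, 6.32, 6.38 and 6.08 in anti-PD-1/L1 and 9.53, 9.52 and 8.99 in anti-CD27 (1.64 ± 0.19). For Rel and Tnfaip3 every anti-CD27 array lay above every combination array, and anti-PD-1/L1 was lowest throughout. Positive controls were lowest in anti-PD-1/L1 too, and the part of the array difference in these genes was not tested.

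The list of CD27 and its TNF receptor relatives moved in both directions, with 8 of 18 genes higher, 2 lower and a median relative difference of -0.01. Traf1, an adaptor induced by NF-kB, was at a mean of 7.50 in the combination, where the 3 arrays were identical, at 6.17, 5.74 and 5.69 in anti-PD-1/L1 and at 7.71, 7.93 and 7.79 in anti-CD27 (1.12 ± 0.065 relative, adjusted p = 1.33e-06). Birc3, an inhibitor of cell death that binds TRAF proteins, was at 6.72 ± 0.025 in the combination, 5.32 ± 0.19 in anti-PD-1/L1 and 6.96 ± 0.096 in anti-CD27. Tnfrsf1b, the second receptor for TNF, rose by 1.20 ± 0.078 and Tnfrsf9, the costimulatory receptor 4-1BB, by 0.61 ± 0.096. Tnfrsf18, the related receptor GITR, fell with a relative difference of -0.65 ± 0.085, and its deposited levels differed little (6.91 against 7.10). Cd70, the ligand of CD27, did not pass.

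Of 21 members of the BCL2 family and survival kinases 6 rose and 5 fell (28.6% and 23.8%, against 15.5% and 20.9% of all genes). Pim1, a survival kinase induced by cytokines, was at 8.48, 8.69 and 8.58 in the combination and 6.94, 6.83 and 7.19 in anti-PD-1/L1, and at 9.17, 9.18 and 8.64 in anti-CD27 (1.19 ± 0.21 relative). Bcl2l11 encodes BIM, which promotes cell death, and rose at least 2.26-fold, to 6.22 in the combination, with a relative difference of 1.18 ± 0.076. Bbc3, which encodes PUMA, another promoter of cell death, was lower in the combination at 5.77, 5.83 and 5.89 than in anti-PD-1/L1 at 6.63, 6.63 and 6.74, with anti-CD27 at 5.77, 5.89 and 5.72 (-1.26 ± 0.086). Bcl2 rose by 0.67 ± 0.073. Bcl2l1, which encodes BCL-XL, did not pass, at 5.43 in the combination and 5.46 in anti-PD-1/L1.

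A list of inhibitory receptors also held ligands (Cd274 and Pdcd1lg2), ectoenzymes and the factor Tox, and of its 20 genes 8 rose and 1 fell (Ceacam1, not above background in either group), with a median relative difference of 0.10. Beside Havcr2 and Lilrb4a, Cd274 (PD-L1) rose, from 5.46, 4.95 and 5.15 in anti-PD-1/L1 to 6.47, 6.46 and 6.24 in the combination, and anti-CD27 was higher still at 7.03, 7.03 and 7.02 (0.86 ± 0.085 relative). Cd5, a brake on T cell receptor signals, rose by 1.01 ± 0.093 and Tigit by 0.92 ± 0.14. Pdcd1 (PD-1), the target of the blockade, was at 7.36, 7.47 and 7.44 in the combination and 7.33, 7.06 and 7.25 in anti-PD-1/L1, and its sign turned between the fits, with a deposited difference of 0.21 ± 0.074 and a relative one of -0.38 ± 0.089. Lag3 was at 6.24 against 5.83, and after the like-level step its difference was 0.07 ± 0.065 (adjusted p = 0.371). Ctla4 was at 6.75 against 6.89, with a deposited difference of -0.15 ± 0.086 and a relative one of -0.62 ± 0.10.

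In a list of CD28, B7 and SLAM family members and other T cell surface molecules such as Cd2 and Cd6, 10 of 14 genes rose, with none lower and a median relative difference of 0.42. Slamf1 was at 6.86 ± 0.067 in the combination, 4.73 ± 0.18 in anti-PD-1/L1 and 6.54 on all 3 arrays of anti-CD27, and Slamf7, a receptor of effector cells, at 8.37 ± 0.094 in the combination, 6.20 ± 0.40 in anti-PD-1/L1 and 7.61 ± 0.096 in anti-CD27. Icos rose by 0.66 ± 0.057 and Cd28 by 0.36 ± 0.065. NK-type receptors rose in 7 of 16 genes, and none of them fell. Klrb1f was near the same level in the combination (5.96, 5.83 and 5.83) and anti-CD27 (5.59, 5.70 and 5.78), above 3.66, 3.55 and 3.79 in anti-PD-1/L1, whereas Klrc2 was at 5.67, 5.55 and 5.26 in the combination, 4.36, 3.95 and 4.36 in anti-PD-1/L1 and 3.77, 3.78 and 3.68 in anti-CD27. Klrg1, a marker of terminal effector cells, was at 4.44, 4.69 and 4.82 in the combination, 3.97, 3.86 and 4.36 in anti-PD-1/L1 and 3.15, 3.26 and 3.48 in anti-CD27 (1.03 ± 0.14). On the deposited scale Klrc2 and Klrg1 thus had their lowest levels in anti-CD27 and Klrb1f in anti-PD-1/L1. None of these genes was above background in anti-PD-1/L1, where background controls were at 4.06, against 3.27 in anti-CD27. The order of Klrc2 and Klrg1 between the single treatments is also that of the background controls and is not read further. Over anti-PD-1/L1 the rise was at least 3.51-fold for Klrb1f, 2.39-fold for Klrc2 and 1.43-fold for Klrg1.

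Genes of naive and memory cells rose beside the effector genes, with 9 of 18 higher, none lower and a median relative difference of 0.66. Il7r, the receptor for interleukin-7 that long-lived T cells keep, was at 9.59, 9.59 and 9.24 in the combination, 7.04, 6.76 and 6.31 in anti-PD-1/L1 and 9.28, 9.41 and 9.40 in anti-CD27 (2.42 ± 0.11 relative, adjusted p = 3.86e-07). Lef1, a transcription factor of naive and stem-like T cells, was at 8.29, 8.23 and 8.11 in the combination, 6.14, 6.17 and 5.75 in anti-PD-1/L1 and 8.91, 8.79 and 8.83 in anti-CD27 (1.75 ± 0.11). Foxo1 and Bach2, factors of the quiescent state, rose by 1.72 ± 0.16 and 0.65 ± 0.088. For Il7r and Lef1 the combination and anti-CD27 were both above anti-PD-1/L1 without overlap. Ccr7, which guides naive cells to lymph nodes, did not pass, at 9.32, 9.35 and 9.08 in the combination and 9.70, 9.21 and 9.07 in anti-PD-1/L1, although cyclic loess gave a difference of -0.56.

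Of 25 chemokine receptors, integrins and other homing molecules 16 rose and 1 fell, with a median relative difference of 0.54. Itgal, a chain of the adhesion molecule LFA-1, was at 9.69 ± 0.072 in the combination, 6.75 ± 0.24 in anti-PD-1/L1 and 9.70 ± 0.12 in anti-CD27, and Itga4, a chain of VLA-4, at 9.12 ± 0.11 in the combination, 6.46 ± 0.17 in anti-PD-1/L1 and 8.23 ± 0.023 in anti-CD27. Cd44, the hyaluronan receptor of activated cells, was at 6.55, 6.42 and 6.34 in the combination and 5.95, 5.48 and 5.44 in anti-PD-1/L1, a relative difference of 0.39 ± 0.09. Cxcr6, a receptor that retains effector cells in tissue, was the member that fell, at 5.26, 5.29 and 4.97 in the combination and 7.07, 6.36 and 6.83 in anti-PD-1/L1 (-1.69 ± 0.18 relative, adjusted p = 4.93e-05). Its anti-CD27 arrays were at 5.04, 4.74 and 4.50, so that anti-PD-1/L1 alone stood high.

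Components of T cell receptor signalling rose in 16 of 24 genes and fell in 2, with a median relative difference of 1.26. Ptprc, the phosphatase CD45, was at 10.22, 10.20 and 10.05 in the combination and 7.76, 7.34 and 7.54 in anti-PD-1/L1, and at 10.05, 10.00 and 10.01 in anti-CD27 (2.50 ± 0.08). Cd3e was at 10.95 ± 0.075 in the combination, 8.89 ± 0.41 in anti-PD-1/L1 and 11.06 ± 0.025 in anti-CD27. Its partner chain Cd3d fell, from 9.97 in anti-PD-1/L1 to 9.40 in the combination, and Cd3g did not pass, at 9.60 against 9.57. Cd3e and Cd3d, chains of 1 receptor complex, moved in opposite directions. Of 23 genes induced early by the receptor 10 rose and 4 fell, with a median relative difference of 0.05. The share of falls (17.4%) was near the 20.9% of all genes. Cd69 was at 8.18, 8.55 and 7.83 in the combination, 6.51, 6.42 and 6.24 in anti-PD-1/L1 and 8.96, 8.85 and 8.54 in anti-CD27. Nfatc1 rose by 1.34 ± 0.15, and its means were 7.83 in the combination, 5.90 in anti-PD-1/L1 and 8.15 in anti-CD27. Egr2 and Egr3, factors of the anergy programme, fell with relative differences of -0.77 ± 0.078 and -0.51 ± 0.17, and Nr4a1 did not pass (-0.04 ± 0.12). In the list of anergy and tolerance genes 7 of 16 rose and 4 fell, a share of falls near that of all genes. Among the higher, Dgka was at 9.97 ± 0.048 in the combination, 8.02 ± 0.33 in anti-PD-1/L1 and 10.28 ± 0.031 in anti-CD27. Ikzf1 was at 8.52 ± 0.032 in the combination, 6.23 ± 0.075 in anti-PD-1/L1 and 8.35 ± 0.03 in anti-CD27. In Cd3e, Nfatc1, Dgka and Ikzf1 anti-PD-1/L1 alone stood low.

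Of 29 genes of the type I response 17 rose and 1 fell, and of 20 interferon gamma GTPases and MHC class I genes 14 rose and 2 fell, with median relative differences of 0.52 and 0.54. Isg15 and Mx1, among the first 17, were not above background in either group. Gbp7, a guanylate-binding protein, was at 9.01, 9.10 and 8.76 in the combination, 5.05, 4.87 and 4.83 in anti-PD-1/L1 and 8.76, 8.87 and 8.85 in anti-CD27, at least 11.5-fold higher in the combination than in anti-PD-1/L1 (3.52 ± 0.085 relative). Eif2ak2, which encodes the RNA sensor PKR, was at 6.50, 6.37 and 6.26 in the combination, 3.25, 3.42 and 3.26 in anti-PD-1/L1 and 6.51, 6.38 and 6.51 in anti-CD27, and Ifih1, the RNA sensor MDA5, at 5.98, 5.80 and 5.61 in the combination, 3.56, 3.12 and 3.60 in anti-PD-1/L1 and 5.94, 5.95 and 5.91 in anti-CD27. In these 3 genes the combination and anti-CD27 overlapped, and anti-PD-1/L1 lay apart. Ifit1 was at 6.10 ± 0.28 in the combination, 4.21 ± 0.21 in anti-PD-1/L1 and 7.09 ± 0.16 in anti-CD27. The immunoproteasome subunits Psmb8 and Psmb9 fell, with relative differences of -0.62 ± 0.087 and -0.65 ± 0.062.

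Genes of cell division rose in the combination, and none was called lower. Of 38 genes of DNA replication 29 rose (76.3%, against 15.5% of all genes), and of 35 genes of mitosis 27 rose (77.1%), with median relative differences of 0.83 and 1.75. After quantile normalization 28 and 27 of these calls held. Only 14 of the 35 mitotic genes were above background in anti-PD-1/L1, against all 35 in the combination. Mki67, which encodes the proliferation antigen Ki-67, was at 8.14, 8.18 and 9.11 in the combination, 3.95, 4.74 and 4.80 in anti-PD-1/L1 and 7.79, 6.86 and 7.54 in anti-CD27, at least 10.3-fold over anti-PD-1/L1 (3.40 ± 0.39 relative, adjusted p = 7.58e-05). Kif11, the motor that pushes the spindle poles apart, was at 7.50, 7.51 and 8.56 in the combination, 3.70, 4.02 and 3.76 in anti-PD-1/L1 and 7.14, 6.31 and 7.15 in anti-CD27, and Hmmr, a spindle protein, at 5.57, 5.59 and 6.52 in the combination, 3.01, 2.99 and 3.07 in anti-PD-1/L1 and 4.87, 4.26 and 4.87 in anti-CD27. In all 3 genes combination mouse 3 was the highest array, the other 2 combination mice were close together, and anti-CD27 lay between the groups.

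The replication helicase showed the same order with less spread. Mcm3 was at 7.93, 7.91 and 8.16 in the combination, 4.83, 4.73 and 4.95 in anti-PD-1/L1 and 6.76, 6.59 and 6.76 in anti-CD27, and Mcm6 was at 8.52 ± 0.09 in the combination, 5.29 ± 0.19 in anti-PD-1/L1 and 7.43 ± 0.026 in anti-CD27. Rrm1 and Rrm2, the subunits of the enzyme that makes deoxynucleotides, rose by 2.48 ± 0.18 and 2.50 ± 0.20, and Ccnb2, a mitotic cyclin, by 1.67 ± 0.17. Of 22 genes that govern entry into the cycle 10 rose and 5 fell (45.5% and 22.7%, the latter near the 20.9% of all genes). Cdk6, a kinase that drives cells out of G1, was at 6.95, 7.17 and 7.12 in the combination, 3.96, 3.85 and 3.74 in anti-PD-1/L1 and 6.37, 6.38 and 6.47 in anti-CD27, at least 7.1-fold over anti-PD-1/L1. The 5 that fell were Cdkn1b, Cdkn1c, Cdkn2b, Cdkn2d and Ccng2, the first 4 of which encode inhibitors of cyclin-dependent kinases. Cdkn1b (p27) was at 6.23 against 6.69, with a relative difference of -0.92 ± 0.074. Rb1 rose by 2.25 ± 0.087 on the probe set kept, but its other 2 probe sets differed by -0.06 and -0.01 (deposited scale).

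Promoters of these genes are shown because their members rose together and carry letters known from periodic genes of the cycle. Capitals mark TTCCCGC, a core bound by E2F factors, in Rrm1, and TTTGAA, the element called CHR found in many mitotic genes, in Kif11 and Mki67, on either strand of the 250 bases before the start (RefSeq, GRCm38.p6). For each motif the risen members with the largest relative difference among those that held it were taken. Rrm1 lies at chr7:102441445-102441694 on the plus strand, Kif11 at chr19:37376132-37376381 on the plus strand and Mki67 at chr7:135716380-135716629 on the minus strand.
Rrm1: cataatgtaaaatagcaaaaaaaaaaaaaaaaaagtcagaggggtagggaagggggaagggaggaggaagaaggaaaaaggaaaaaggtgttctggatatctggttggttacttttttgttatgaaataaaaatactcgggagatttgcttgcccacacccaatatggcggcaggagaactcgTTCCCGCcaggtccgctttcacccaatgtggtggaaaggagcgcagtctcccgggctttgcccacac
Kif11: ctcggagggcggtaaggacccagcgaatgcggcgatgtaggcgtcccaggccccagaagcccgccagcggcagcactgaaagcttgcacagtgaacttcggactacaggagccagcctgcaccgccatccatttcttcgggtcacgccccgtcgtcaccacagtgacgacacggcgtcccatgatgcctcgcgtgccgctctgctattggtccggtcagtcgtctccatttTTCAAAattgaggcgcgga
Mki67: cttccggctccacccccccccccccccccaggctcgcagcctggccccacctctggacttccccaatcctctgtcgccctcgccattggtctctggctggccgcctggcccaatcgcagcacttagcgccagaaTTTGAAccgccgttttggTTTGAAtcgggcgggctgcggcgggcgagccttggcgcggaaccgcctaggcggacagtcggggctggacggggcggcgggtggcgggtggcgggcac
The E2F core was in 8 of 25 risen replication genes with a promoter (32.0%) and in none of 22 risen mitotic genes, against 5.49% of 18265 genes tested. The CHR letters were in 12 of those 22 mitotic genes (54.5%) and in 3 of the 25 replication genes, against 16.6%. The cores do not overlap each other in these sequences, and Mki67 held the CHR letters in 2 places.

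Lists of biosynthesis and of respiration differed in their counts. Of 24 genes of ribosome biogenesis 14 rose and 3 fell, the risen among them Ncl (nucleolin) at 9.16, 9.16 and 9.03 in the combination, 6.23, 5.94 and 5.91 in anti-PD-1/L1 and 8.95, 8.95 and 9.14 in anti-CD27, and Dkc1 at 7.05 ± 0.088 in the combination, 4.67 ± 0.13 in anti-PD-1/L1 and 6.56 ± 0.025 in anti-CD27. Myc itself was at 7.14, 7.14 and 6.90 in the combination and 6.03, 6.29 and 6.18 in anti-PD-1/L1, higher on the deposited scale (0.89 ± 0.086) and not past the threshold after the like-level step (0.33 ± 0.13, adjusted p = 0.063), although quantile normalization, with a difference of 0.41, called it higher. Of 20 genes of cholesterol and fatty acid synthesis 11 rose and 2 fell, with Acaca, the first enzyme of fatty acid synthesis, at 5.94 ± 0.034 against 4.04 ± 0.11 and Srebf2, the regulator of cholesterol genes, at 7.49 ± 0.022 against 5.73 ± 0.057. Of 28 genes of amino acid supply and protein folding 12 rose and 3 fell, and Hsp90b1, a chaperone of the endoplasmic reticulum, was at 9.30 ± 0.032 in the combination, 6.08 ± 0.25 in anti-PD-1/L1 and 8.60 ± 0.017 in anti-CD27. Of 19 glycolytic genes 6 rose and 1 fell, and Pfkp rose by 1.26 ± 0.059. Oxidative phosphorylation was the list of the 25 with more falls than rises, 9 against 4 of 27 genes (33.3% and 14.8%), and had a median relative difference of -0.27. Over all genes tested falls also outnumbered rises (20.9% and 15.5%), and the share of rises in this list was near theirs. Cox4i1, a subunit of cytochrome oxidase, was at 6.92, 6.88 and 6.92 in the combination, 7.70, 7.92 and 7.71 in anti-PD-1/L1 and 6.82, 6.89 and 6.81 in anti-CD27 (-1.44 ± 0.13), and Ndufb8 and Ndufv1 of complex I fell, with relative differences of -1.25 ± 0.12 and -1.24 ± 0.10. The plot of the 25 lists shows their members and medians.

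**Figure D4:**
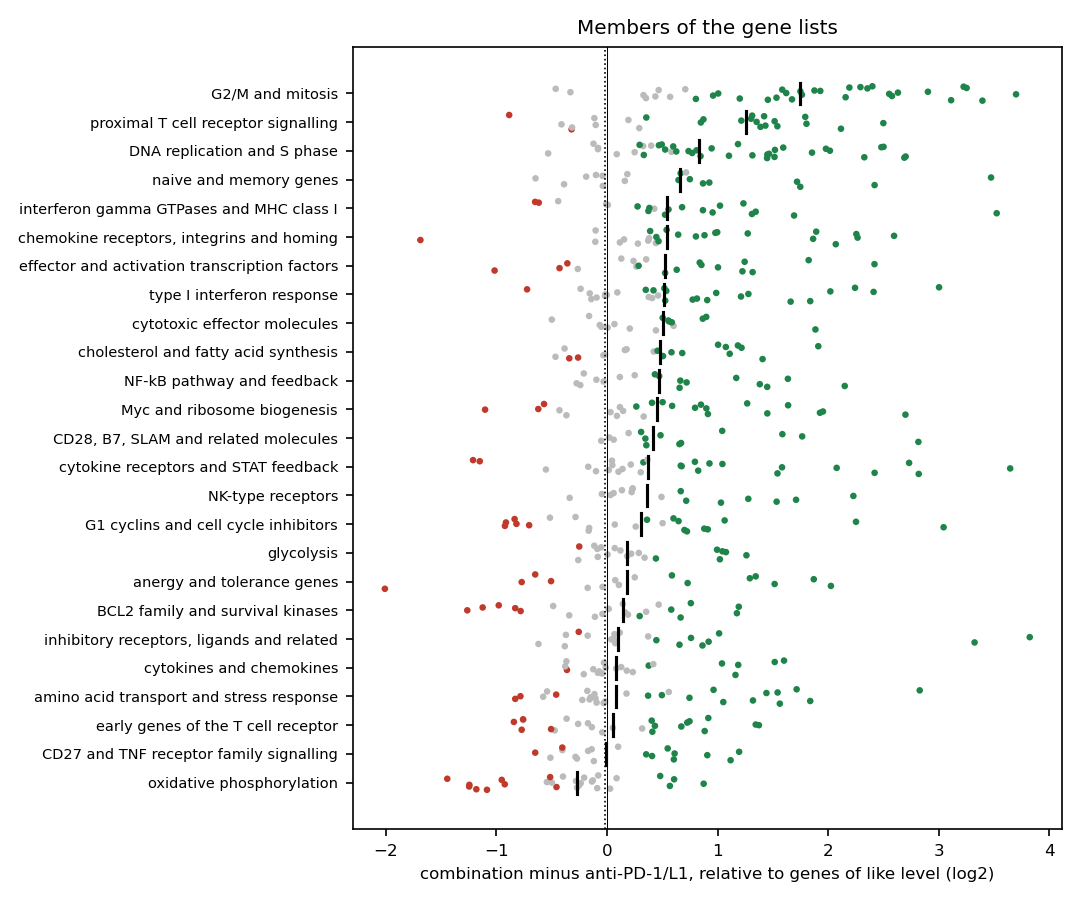
Combination minus anti-PD-1/L1 relative to genes of like level (log2, x axis) for the members of 25 gene lists (y axis, ordered by their median), with 1 point per measured gene, green where it rose, red where it fell and grey otherwise, and the median as a black bar. The G2/M list has the highest median (1.75), oxidative phosphorylation the lowest (-0.27), and the dotted line is the median of all genes.

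The 15 largest rises by the naming rule all exceeded the 95th percentile of the positive controls (3.25), a value passed by 31 genes or 0.101% of those tested. This follows largely from ranking by size, and some positive controls pass that value by definition. Beside Il12rb2, Havcr2, Lilrb4a, Kif11, Mki67 and Gbp7 the 15 rises were Cbl, Eif3a, Bin2, Hmgn5, Smc3, Actn1, Iqgap1, Eif3c and Ddx21. Cbl, a ubiquitin ligase that dampens receptor signals, was at 9.16, 9.35 and 9.39 in the combination, 3.91, 5.72 and 4.38 in anti-PD-1/L1 and 9.31, 9.15 and 9.24 in anti-CD27 (4.23 ± 0.43 relative), and its second probe set differed by 2.85 on the deposited scale where the first differed by 4.63. Eif3a, a subunit of the translation initiation factor eIF3, was at 9.30, 9.39 and 9.11 in the combination, 5.27, 5.17 and 5.21 in anti-PD-1/L1 and 8.92, 8.92 and 8.98 in anti-CD27, and Iqgap1, a scaffold of the cytoskeleton, at 9.67, 9.67 and 9.57 in the combination, 5.85, 5.70 and 5.93 in anti-PD-1/L1 and 9.46, 9.44 and 9.44 in anti-CD27. Actn1 (alpha-actinin) was at 9.73 ± 0.094 in the combination, 5.89 ± 0.13 in anti-PD-1/L1 and 9.86 ± 0.07 in anti-CD27, and Smc3, a cohesin subunit, at 7.99 ± 0.064 in the combination, 4.04 ± 0.22 in anti-PD-1/L1 and 7.43 ± 0.052 in anti-CD27. In 13 of the 15 genes, all but Il12rb2 and Havcr2, the combination and anti-CD27 means lay closer to each other than to anti-PD-1/L1, as did those of the positive controls (6.81 in the combination, 5.75 in anti-PD-1/L1 and 6.70 in anti-CD27). The part of the array difference in these genes was not tested. In Il12rb2 and Havcr2 both single treatments were low.

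The largest falls were small structural RNAs. Of the 15 named by the rule 14 were copies of the 5S ribosomal RNA and the other was Rnu2-10, a U2 spliceosomal RNA, at 7.65, 7.37 and 7.28 in the combination, 9.50, 9.49 and 10.41 in anti-PD-1/L1 and 7.50, 7.89 and 7.33 in anti-CD27. All 69 measured 5S copies fell, with a median difference of -2.21 and a median relative difference of -1.96, but their sequences are nearly identical and they count as 1 signal. Both measured Y RNAs fell, as did 10 of 15 Rnu genes, 4 of 6 small Cajal body RNAs and 42 of 63 small nucleolar RNAs, of which 1 rose. Of 43 genes of ribosomal proteins (Rps and Rpl symbols) 20 fell and 9 rose, where 20.9% of all genes tested fell and 15.5% rose. The anti-PD-1/L1 arrays, which were high in bacterial, background and spike-in controls, were high in these RNAs, and the part of the array difference in them was not tested.

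Other genes fell to below both single treatments. Izumo1r, named by the rule from the anergy list and known as folate receptor 4 of regulatory and anergic T cells, had the widest gap of them (1.05) and was at 4.93, 4.87 and 4.91 in the combination, 6.92, 6.53 and 6.35 in anti-PD-1/L1 and 6.29, 5.98 and 5.98 in anti-CD27, and its relative difference was -2.01 ± 0.11 (adjusted p = 1.05e-06). The next were picked after their values were seen, from genes whose combination arrays lay below all 6 other arrays. Rgs10, which ends signals of G protein-coupled receptors, was at 5.19, 5.33 and 5.14 in the combination, 6.90, 6.60 and 6.46 in anti-PD-1/L1 and 5.78 on all 3 arrays of anti-CD27. Spry1, an inhibitor of growth factor and antigen receptor signals, was at 4.84, 4.77 and 4.87 in the combination, 5.39, 5.64 and 5.78 in anti-PD-1/L1 and 5.39, 5.40 and 5.25 in anti-CD27. Ephx1, an epoxide hydrolase, was at 5.34 ± 0.086 in the combination, 6.12 ± 0.23 in anti-PD-1/L1 and 6.25 ± 0.17 in anti-CD27, and Neurl3, a ubiquitin ligase, at 6.20 ± 0.17 in the combination, 6.89 ± 0.13 in anti-PD-1/L1 and 6.85 ± 0.15 in anti-CD27. For Ephx1 and Neurl3 the single treatments had similar means and the combination lay below both, and for Izumo1r and Rgs10 the order ran from anti-PD-1/L1 over anti-CD27 to the combination, as the plot of 12 further genes shows.

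**Figure D5:**
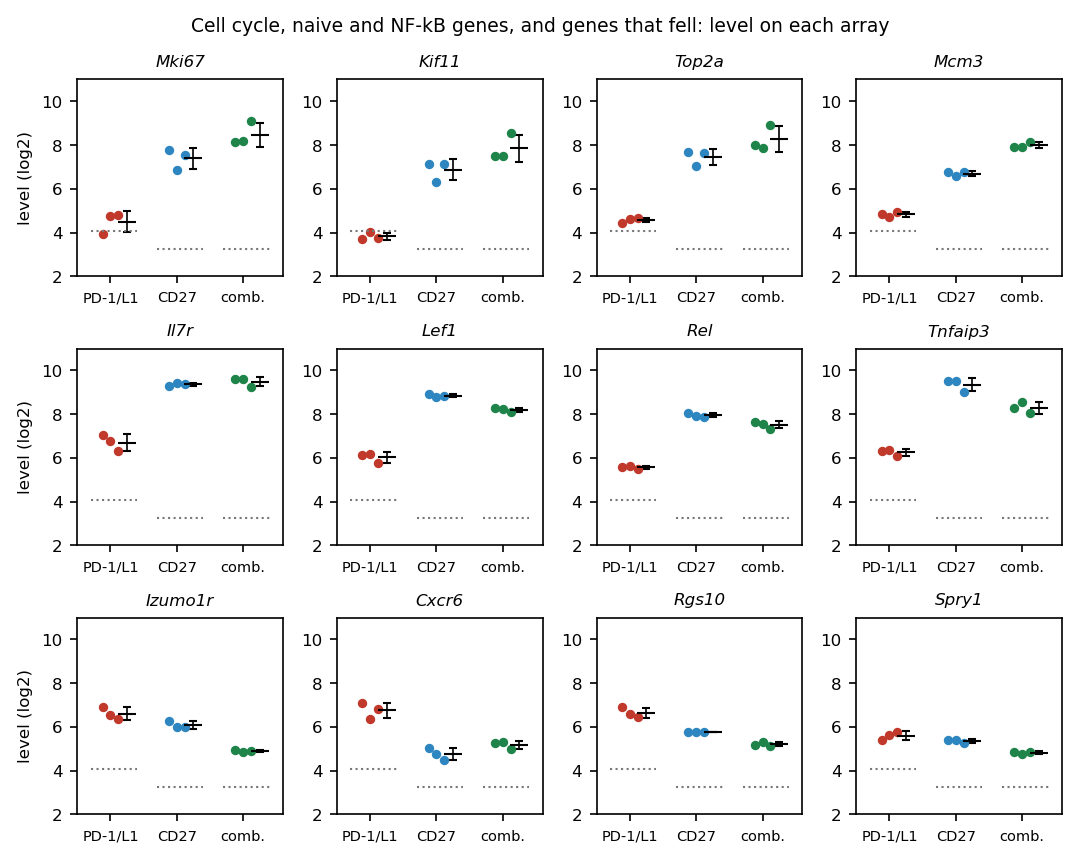
Log2 level (y axis) of 12 genes on each of 9 arrays, with 1 coloured point per array, the mean and SD of 3 arrays in black and the mean of the group's background controls as a dotted line. Cell cycle genes are highest in the combination, Il7r, Lef1, Rel and Tnfaip3 are low in anti-PD-1/L1, and Izumo1r, Rgs10 and Spry1 are lowest in the combination, whereas Cxcr6 is low in both groups that received the CD27 agonist.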

How the data were processed

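RNA of sorted pmel1 CD8+ T cells was measured on 9 arrays, 3 per group. The deposited values are log2 levels. They were made with RMA (oligo package, version 1.38.0) per the submitters' notes on processing. RMA subtracts background, equalises the arrays' distributions and summarises probes. In the deposited values 1686 genes were identical (within 1e-09) on all 3 combination arrays, 219 on all 3 anti-PD-1/L1 arrays and 2629 on all 3 anti-CD27 arrays. The genome build behind the arrays is not given in the sources used here. Of 72688 probe sets, 6732 were controls, 31258 named 1 gene, 1492 several and 33206 none in the platform annotation. Where 441 genes had more than 1 probe set, the one with the highest mean was kept.

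All 9 arrays entered a limma 3.58.1 fit in R 4.3.3 with a mean for each group (6 residual degrees of freedom), on the deposited log2 values and on values relative to the 200 genes of like level on either side, with Benjamini-Hochberg adjustment over 30702 genes and a threshold of 0.05. Both fits were run on simulated arrays as a check of the code. Those arrays carried the same running median that the relative fit removes, so the run cannot show how well that fit suits the real arrays. Named were the 15 largest relative rises and falls among genes called in both fits, not overlapping between groups and over 1 log2 unit above background controls (predicted genes, microRNAs, small nucleolar RNAs, olfactory and vomeronasal receptors and antigen receptor segments left out), up to 3 called members of each list, or its largest where none was called, and a fixed set of T cell genes. The comparison, its lists and these genes were chosen with earlier results of these data known, and other members were named after their values were seen. A fold given as "at least" counts from the lower group's background controls, or from the gene's own level where higher, for a gene not above background there, and is the smallest over 4 scales. Controls were compared with a two-sided exact permutation test. Promoter motifs were searched on both strands and are a description. Alternatives were other normalizations, the 6 arrays alone, a replicate block, array weights, a filter on dim genes, a wider window, other probe sets and each array left out.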

Additional observations from a re-analysis of the deposited data

How the results depend on the processing

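The number of genes lower on the deposited scale moved from 16368 to 8571 after quantile normalization, 7446 after cyclic loess and 6251 when the dimmest 50% of genes were left out. The counts called in both fits stayed within 1.5 times, and of the genes called in both fits none turned direction under the alternatives but 9 when the probe set with the lowest mean stood for the gene. Of 130 named genes 129 kept their call after quantile normalization and 126 after cyclic loess; Csf1r, Fcer1g, Mpo and Pgk1 lost theirs, and Myc and Prf1 gained one, under some alternatives. Array weights per group, which allow for the wider spread of anti-PD-1/L1, kept 91.3% of the higher and 79.3% of the lower calls. Under them 22 mitotic genes rose, against 27 in the main fits. With medians in place of means the controls differed by -1.02 (background), -1.56 (bacterial and phage), -0.82 (ERCC) and 0.11 (negative). Leaving out 1 array at a time gave 5334 to 6211 higher and 14490 to 16438 lower genes on the deposited scale, and 4393 to 4783 higher and 5146 to 6730 lower in both fits. Among genes not called, the relative difference of Ccr7 (-0.0378) ranged from -0.141 to 0.152 over such fits and turned its sign in 4 of 6 (0.104, 0.152, 0.0325 and 0.0302), and that of Lag3 (0.0749) ranged from -0.0764 to 0.0273, with its sign turned in 4 of 6, and was -0.0117 with a window of 500 genes. Cyclic loess gave Ccr7 -0.56, past the threshold in that fit (limma adjusted p = 0.000144) but not in both (0.291 to 0.962 over the alternatives, as the larger p of the 2 fits); the cause was not tested. Same-numbered arrays of the groups had correlations of deviations of 0.0831, 0.0232 and 0.161 on the deposited scale, not all over 0.1, so the numbers were not taken as pairs. With the replicate number as a block 5730 genes were higher and 15980 lower on the deposited scale, and 4654 and 6062 in both fits, and it changed the call of none of the named genes. With 3 arrays per group and a difference between arrays that runs with the treatment, the precision is limited by their number.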
